A study of Mus musculus with 9 samples.

Results

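Collagen chain genes were taken as every gene of the deposited table whose symbol is Col, a number, the letter a and a second number, with nothing more. This selection held 40 of the 27945 genes in the table. By known type, 10 are fibrillar, 6 belong to basement membrane type IV, 6 to beaded filament type VI, 3 to network types VIII and X, 1 to the anchoring fibril type VII, 7 to fibril-associated types, 2 to multiplexins and 4 to transmembrane types, and 1, Col26a1, was left unclassified. Messenger RNA of mouse liver was sequenced in 9 libraries, 3 per group, all at 16 days. The saline group received sanitary saline, the gefitinib group received gefitinib, an inhibitor of the EGFR tyrosine kinase, and the combined group received glycyrrhizic acid, a saponin of liquorice root, together with gefitinib. The comparison of the combined with the gefitinib group therefore addresses what adding glycyrrhizic acid changed, and no library of glycyrrhizic acid alone was analysed here. The sources used here do not give strain, age, sex, dose or route. Nothing in the labels ties the 3 libraries of a group to 3 different mice, so the p-values reflect the variation among these libraries, which may be technical.

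Collagens are secreted trimers with long triple-helical stretches that give tissue its tensile strength. In liver, fibrillar types I and III lie in portal tracts and accumulate in scars, where hepatic stellate cells and portal fibroblasts are their main known source. Type IV forms the sheet of basement membranes, type VI forms beaded filaments beside them, and type XVIII, made largely by hepatocytes, is the precursor of the anti-angiogenic fragment endostatin. Type I is mostly a heterotrimer that holds more of the Col1a1 than of the Col1a2 product.

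Library totals lay between 56440871 and 60665156 counts, and collagen chains took between 0.101% and 0.141% of them. Hepatocyte markers summed to between 87669 and 98668 CPM (counts scaled to library size) in saline, between 87507 and 91228 in gefitinib and between 66181 and 80819 in combined libraries. Of the 6 hepatocyte markers, 2 were lower in the combined group than with gefitinib and 3 were lower than in saline. Skeletal muscle markers set 1 library apart from its group. Their sum was 176 CPM in gefitinib 1 against 0.932 and 0.63 CPM in gefitinib 2 and 3, it was 0.34 to 1.27 CPM in saline, and it was 117 to 154 CPM in the combined libraries. Of the 10 muscle markers, 9 were higher in the combined group than in saline and none was at 0 in all libraries. For the chains and partner genes called against gefitinib, the text says which calls were lost without gefitinib 1.

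Of the 40 chains, 34 passed the low-count filter and were tested, and 15 of these were called changed in at least 1 of the 3 comparisons, at an adjusted p under 0.05 in edgeR's quasi-likelihood test. Gefitinib alone against saline gave 1 called chain, Col11a2, which was lower, and none that was higher. In that comparison 0.547% of the 18113 tested genes were called higher and 0.591% lower. At an unadjusted p under 0.05, 2 chains were higher and 6 lower, and DESeq2 called 1 higher and 3 lower. In the combined group against gefitinib, 7 chains rose, 2 fell and 25 were not called, beside 4.96% of all tested genes called higher and 4.11% lower, and DESeq2 called 9 higher and 4 lower. Scaled by library size alone, this split was 8 higher and 1 lower. In the combined group against saline, 9 chains rose, 6 fell and 19 were not called, beside 9.37% called higher and 8.32% lower over all tested genes, and DESeq2 called 10 higher and 6 lower. Each group stands in 2 of the 3 comparisons, so these share libraries. All 7 chains that rose against gefitinib (Col1a1, Col1a2, Col3a1, Col4a1, Col5a2, Col6a1 and Col6a3) were also called higher against saline, and both that fell (Col18a1 and Col27a1) were also called lower against saline. The median log2 fold change of the 34 chains was -0.20 for gefitinib against saline, 0.47 for combined against gefitinib and 0.39 for combined against saline, where the median of all tested genes was -0.001, 0.005 and -0.009. In RNA from whole liver, fewer cells of a type and less RNA per cell cannot be told apart.

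**Figure D1:**
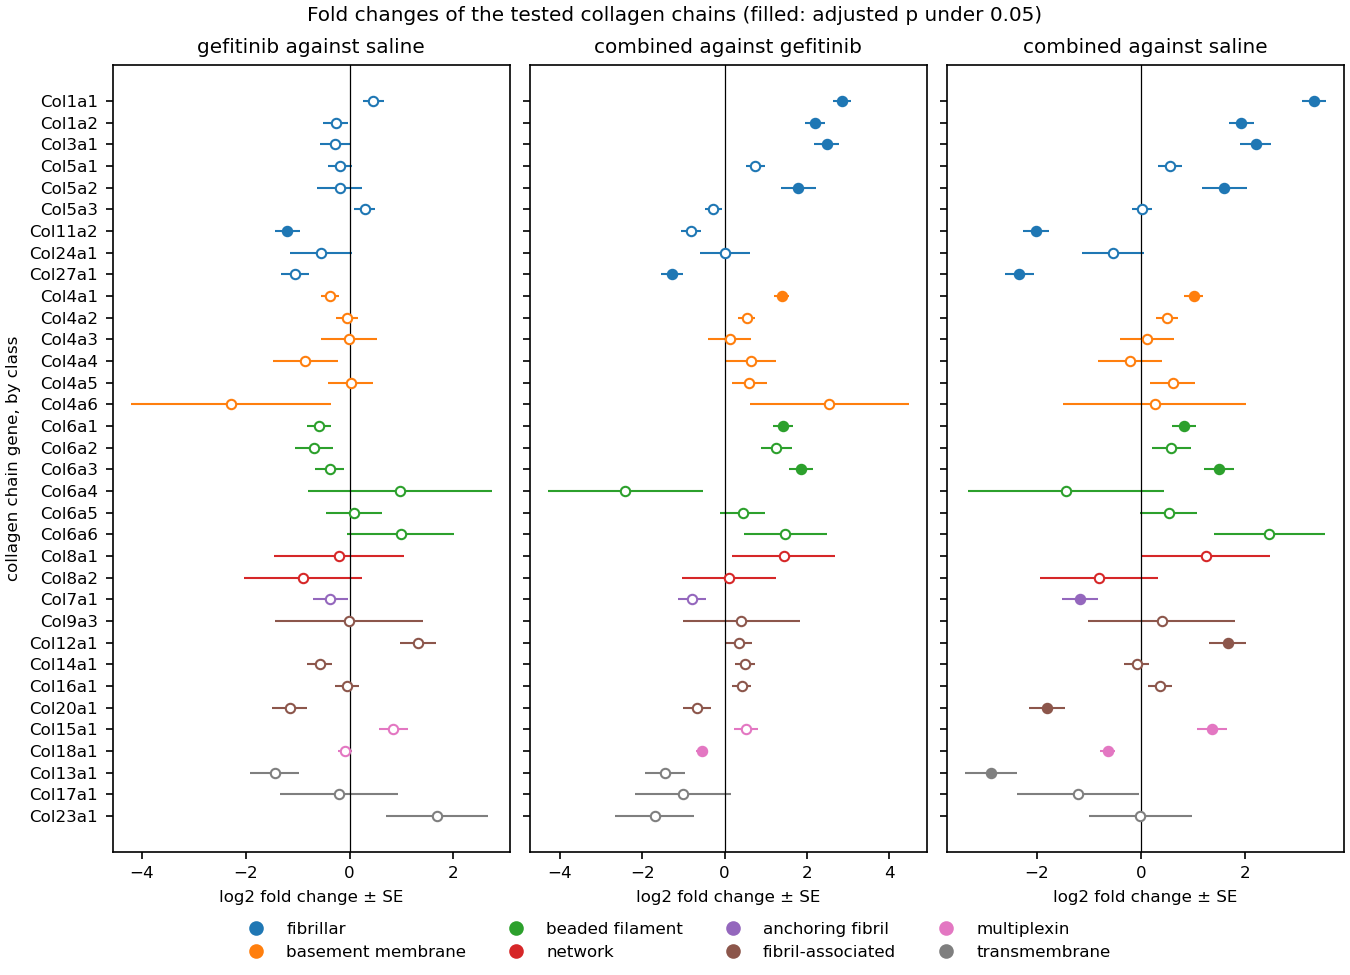
Log2 fold change of the collagen chains in the 3 comparisons, from the edgeR fit, with standard errors as bars, colours for collagen types and filled points for called chains. Col1a1 stands farthest to the right in the combined group, at 2.85 against gefitinib and 3.31 against saline, and Col13a1 and Col27a1 stand farthest to the left among called chains, at -2.88 and -2.33.

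The 250 bases before the RefSeq start of 4 chains that changed against saline are shown, because they are the 2 largest changes in each direction whose gene has 1 listed promoter and no annotated GENCODE M21 exon inside that window. Of the 40 chains, 32 have a RefSeq promoter entry. The sequences are read 5′ to 3′ on the gene's strand in build GRCm38.p6, and capitals mark a match to 1 of 4 short motifs, searched on both strands. The motifs were the TATA box TATAAA, the CCAAT box CCAAT, the GC box GGGCGG and the AP-1 site TGANTCA, held by 12.4%, 33.8%, 32.7% and 6.75% of the same 250-base windows of all 32851 promoters in the RefSeq table. Col3a1 and Col6a3 rose, and Col13a1 and Col27a1 fell.
Col3a1, chr1:45311288-45311537, plus strand: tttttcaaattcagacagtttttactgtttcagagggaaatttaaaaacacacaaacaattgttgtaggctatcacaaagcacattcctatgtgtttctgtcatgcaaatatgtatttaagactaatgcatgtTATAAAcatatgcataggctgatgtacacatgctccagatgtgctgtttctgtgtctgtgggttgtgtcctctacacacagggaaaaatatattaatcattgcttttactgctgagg
Col6a3, chr1:90843972-90844221, minus strand: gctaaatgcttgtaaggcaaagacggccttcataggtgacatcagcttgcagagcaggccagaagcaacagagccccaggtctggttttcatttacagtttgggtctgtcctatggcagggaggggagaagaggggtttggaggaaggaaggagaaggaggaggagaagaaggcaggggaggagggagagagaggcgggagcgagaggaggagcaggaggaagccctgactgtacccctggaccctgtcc
Col13a1, chr10:61979109-61979358, minus strand: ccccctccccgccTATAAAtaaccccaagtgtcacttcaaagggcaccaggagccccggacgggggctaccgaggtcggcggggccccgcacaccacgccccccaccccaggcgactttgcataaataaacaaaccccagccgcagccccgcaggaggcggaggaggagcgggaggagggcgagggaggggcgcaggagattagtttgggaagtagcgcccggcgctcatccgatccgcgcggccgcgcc
Col27a1, chr4:63215162-63215411, plus strand: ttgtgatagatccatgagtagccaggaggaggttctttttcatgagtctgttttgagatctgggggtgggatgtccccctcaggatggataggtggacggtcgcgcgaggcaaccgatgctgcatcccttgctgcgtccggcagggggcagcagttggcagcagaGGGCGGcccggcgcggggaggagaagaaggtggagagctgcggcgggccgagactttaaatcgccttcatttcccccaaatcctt
TATAAA begins 117 bases before the start of Col3a1 and 237 bases before the start of Col13a1, GGGCGG begins 85 bases before the start of Col27a1, and these letters were not matched in the window of Col6a3. The window of Col27a1 lies inside the gene as the deposited table bounds it, since the RefSeq start is downstream of the start listed there. A match describes these letters and shows no binding.

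The fibrillar chains of types I and III were low in the saline and gefitinib libraries and several-fold higher in all 3 combined libraries. Col1a1 (ENSMUSG00000001506, chr11:94936224-94953042) stood at 0.811, 0.713 and 0.592 FPKM in saline, 0.949, 1.25 and 0.799 in gefitinib and 7.31, 10.5 and 6.73 in the combined libraries. The lowest combined library was above every other library, and saline and gefitinib overlapped. The rise was 7.23-fold against gefitinib (log2 2.85, SE 0.22, adjusted p = 0.000241 in edgeR) and 9.92-fold against saline (log2 3.31, SE 0.23, adjusted p = 4.67e-05). Col1a2 (ENSMUSG00000029661, chr6:4504814-4541544), the partner chain of type I, was measured at 1.18, 0.93 and 0.735 FPKM in saline, 0.624, 1.09 and 0.732 in gefitinib and 3.77, 5.36 and 3.43 in the combined group. It rose 4.55-fold against gefitinib (log2 2.19, SE 0.24, adjusted p = 0.00108) and 3.78-fold against saline (log2 1.92, SE 0.24, adjusted p = 0.000841), with no overlap.

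Col3a1 (ENSMUSG00000026043, chr1:45311538-45349706), the homotrimeric chain of type III that is laid down with type I, had 4.25, 2.06 and 1.83 FPKM in saline, 1.65, 2.69 and 2.56 in gefitinib and 13.2, 17.1 and 13.0 in the combined libraries. Saline 1 was above the other saline libraries and still below every combined library. The rise was 5.57-fold against gefitinib (log2 2.48, SE 0.30, adjusted p = 0.00148) and 4.60-fold against saline (log2 2.20, SE 0.30, adjusted p = 0.00121). Exons of Col3a1 share 141 bases on the same strand with the annotated gene Gm47302, which held 1 count in every library. Gefitinib alone left these 3 chains uncalled, with log2 fold changes of 0.46 for Col1a1, -0.27 for Col1a2 and -0.28 for Col3a1.

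**Figure D2:**
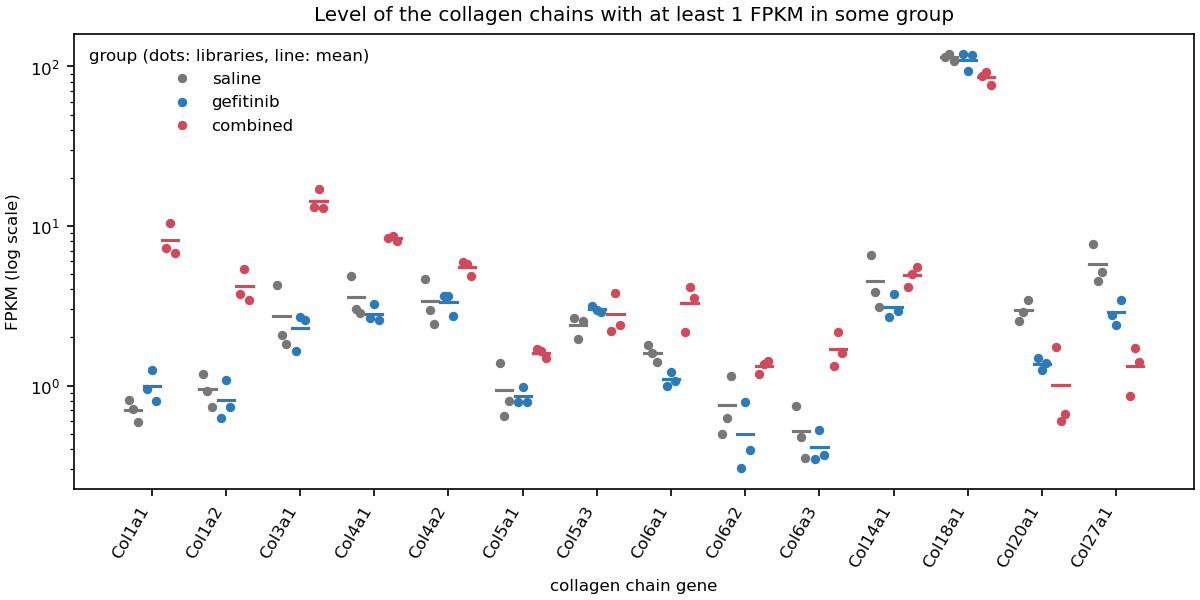
FPKM of collagen chains by library, on a log axis, for the 14 chains with a mean of at least 1 FPKM in some group, with a point per library and a line at the mean of each group. The combined libraries of Col1a1, Col1a2 and Col3a1 lie above all others, and those of Col27a1 lie below, at 0.861 to 1.73 FPKM.

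Of the 3 type V chains, whose trimers lie inside type I fibrils and set their diameter, 1 was called in edgeR. Col5a2 (chr1:45374321-45503282) read 0.396, 0.148 and 0.149 FPKM in saline, 0.147, 0.305 and 0.174 in gefitinib and 0.644, 1.14 and 0.648 in the combined group. It rose 3.45-fold against gefitinib (log2 1.79, SE 0.43, adjusted p = 0.0329) and 3.03-fold against saline (log2 1.60, SE 0.43, adjusted p = 0.0307), and the combined libraries did not overlap either group. The call against gefitinib was lost without gefitinib 1, 3 or any 1 combined library, and that against saline without saline 2 or 3 or combined 2 or 3. Both calls were also lost with a replicate block and with no filter. The adjusted p-values reached 0.119 and 0.105 over all alternatives.

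Col5a1, the chain shared by most type V trimers, had 1.38, 0.647 and 0.797 FPKM in saline, 0.792, 0.983 and 0.787 in gefitinib and 1.69, 1.65 and 1.49 in the combined group. In FPKM its combined libraries were above all others, but in counts scaled as for the edgeR test combined 3 was below saline 1. EdgeR called neither comparison (log2 0.74, adjusted p = 0.0787 against gefitinib and log2 0.56, adjusted p = 0.127 against saline), while DESeq2 called the rise against gefitinib. Col5a3, the less common chain of the type, read 2.65, 1.96 and 2.54 FPKM in saline, 3.14, 2.97 and 2.88 in gefitinib and 2.21, 3.82 and 2.40 in the combined group, where its libraries overlapped both other groups. Its log2 fold change was 0.02 against saline (SE 0.20, adjusted p = 0.961). Exons of Col5a1 overlap those of the genes 2810430I11Rik and Gm13372 on the opposite strand, by 99 and 113 bases, so their reads cannot be told apart if counting ignored strand.

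Other fibrillar chains went the opposite way. Col27a1 (ENSMUSG00000045672, chr4:63214004-63333749), a fibrillar-type chain best known from cartilage, had 7.68, 4.5 and 5.16 FPKM in saline, 2.78, 2.40 and 3.43 in gefitinib and 0.861, 1.73 and 1.40 in the combined group. The 3 groups did not overlap, in the order saline, gefitinib, combined. It was 5.01-fold lower in the combined group than in saline (log2 -2.33, SE 0.28, adjusted p = 0.000692) and 2.43-fold lower than with gefitinib (log2 -1.28, SE 0.27, adjusted p = 0.0192), while gefitinib against saline was not called in edgeR (log2 -1.05, adjusted p = 0.11) but was in DESeq2. The call against gefitinib was lost with a replicate block and without gefitinib 1, gefitinib 3 or combined 3, with an adjusted p of up to 0.0691 over all alternatives.

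Col11a2 (chr17:34039437-34066685), a minor fibril chain of cartilage, read 0.619, 0.572 and 0.835 FPKM in saline, 0.282, 0.281 and 0.346 in gefitinib and 0.236, 0.164 and 0.177 in the combined group. Here too the groups stood apart in that order. The fall was 2.30-fold with gefitinib (log2 -1.20, SE 0.24, adjusted p = 0.0499) and 4.05-fold in the combined group against saline (log2 -2.02, SE 0.25, adjusted p = 0.000736). Combined against gefitinib was called in DESeq2 but not in edgeR (log2 -0.82, adjusted p = 0.0647). The call for gefitinib against saline lay at the threshold and was lost when any 1 of the 9 libraries was left out, with an adjusted p of up to 0.176 over all alternatives. Of these alternatives, only DESeq2 kept it. Cartilage and tendon markers summed to 3.41 to 8.34 CPM in saline, 4.01 to 5.93 in gefitinib and 3.40 to 6.98 in the combined group. Of the 8 listed, 4 were present and 3 tested, and none was called. The list holds Sox9, which also served as a bile duct cell marker, so the sum is no measure of cartilage alone. Col24a1, the remaining tested fibrillar chain, lay between 0.0349 and 0.106 FPKM and was called in none of the comparisons, and Col11a1 was not tested, with 94 counts over all libraries and 62 of them in 1.

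The type IV chains of basement membranes split between 1 gene that rose and its neighbour that did not pass the test. Col4a1 (ENSMUSG00000031502, chr8:11198423-11312826) had 4.84, 3.02 and 2.83 FPKM in saline, 2.64, 3.24 and 2.57 in gefitinib and 8.35, 8.70 and 8 in the combined group. Every combined library was above every other library. It rose 2.63-fold against gefitinib (log2 1.39, SE 0.18, adjusted p = 0.00178) and 2.02-fold against saline (log2 1.01, SE 0.18, adjusted p = 0.00421). Col4a2 (ENSMUSG00000031503, chr8:11312805-11449287) read 4.68, 2.99 and 2.42 FPKM in saline, 3.66, 3.62 and 2.73 in gefitinib and 5.93, 5.74 and 4.87 in the combined group. In FPKM its combined libraries were also above all others, but in counts scaled as for the edgeR test combined 3 was below saline 1. The difference was smaller, at 1.46-fold against gefitinib (log2 0.54, SE 0.21, adjusted p = 0.151) and 1.41-fold against saline (log2 0.49, SE 0.21, adjusted p = 0.143). Both genes lie head to head on opposite strands and overlap by 22 bases. Of the other type IV genes, which build the collagen of specialised membranes such as that of the kidney glomerulus, Col4a5 had between 0.215 and 0.648 FPKM and Col4a3, Col4a4 and Col4a6 at most 0.139, and none of them was called. Sinusoidal endothelial markers summed to 328 to 422 CPM in saline, 139 to 163 in gefitinib and 72.3 to 111 in the combined group, and thus were lowest where Col4a1 was highest. Of these 9 markers, 8 were lower with gefitinib than in saline, 5 were lower in the combined group than with gefitinib, all 9 were lower in the combined group than in saline, and none was at 0 in all libraries. Their part in these results was not tested.

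Of the 3 main type VI chains, whose beaded filaments surround cells and link them to fibrils, 2 rose in the combined group. Col6a1 (chr10:76708792-76726168) stood at 1.80, 1.61 and 1.40 FPKM in saline, 1.00, 1.21 and 1.07 in gefitinib and 2.16, 4.12 and 3.54 in the combined group. The groups did not overlap, with gefitinib lowest and the combined group highest. It rose 2.66-fold against gefitinib (log2 1.41, SE 0.24, adjusted p = 0.00674) and 1.76-fold against saline (log2 0.82, SE 0.23, adjusted p = 0.0382). The call against saline was lost when any 1 library other than combined 1 was left out, with an adjusted p of up to 0.126 over all alternatives. It was also lost with a replicate block, no filter and only the 6 libraries compared.

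Col6a3 (ENSMUSG00000048126, chr1:90765923-90843971), the long chain of the type VI trimer, read 0.740, 0.474 and 0.349 FPKM in saline, 0.347, 0.526 and 0.369 in gefitinib and 1.32, 2.16 and 1.61 in the combined group. It rose 3.64-fold against gefitinib (log2 1.86, SE 0.29, adjusted p = 0.00492) and 2.80-fold against saline (log2 1.49, SE 0.29, adjusted p = 0.00673), without overlap. Col6a2 had 0.495, 0.628 and 1.15 FPKM in saline, 0.303, 0.783 and 0.394 in gefitinib and 1.18, 1.37 and 1.42 in the combined group. In FPKM the combined libraries were just above the highest saline library, but in counts scaled as for the edgeR test combined 1 was below saline 3. EdgeR called neither comparison (log2 1.26, SE 0.37, adjusted p = 0.0667 against gefitinib and log2 0.58, adjusted p = 0.326 against saline), while DESeq2 called the rise against gefitinib. Col6a4, Col6a5 and Col6a6 lay at or below 0.489 FPKM and were not called in edgeR, and DESeq2 called Col6a6 higher in the combined group than in saline.

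Col18a1 (ENSMUSG00000001435, chr10:77052178-77166548), the type XVIII multiplexin, was the most abundant chain per length in every group and fell modestly in the combined group. It had 114, 119 and 109 FPKM in saline, 119, 93.5 and 118 in gefitinib and 87.7, 92.3 and 76.2 in the combined group. All combined libraries were below all others, although combined 2 was close to gefitinib 2. The fall was 1.56-fold against saline (log2 -0.64, SE 0.14, adjusted p = 0.0109) and 1.46-fold against gefitinib (log2 -0.55, SE 0.14, adjusted p = 0.0356). The call against gefitinib was lost without gefitinib 1 or 3 or any 1 combined library, with an adjusted p of up to 0.125 over all alternatives. It was also lost with a replicate block, library size scaling, no filter, only the 6 libraries compared and every limma fit on FPKM. Col15a1 (chr4:47208161-47313167), the other multiplexin, found at the outer face of basement membranes, went up at a far lower level, with 0.394, 0.218 and 0.215 FPKM in saline, 0.544, 0.436 and 0.538 in gefitinib and 0.722, 1.03 and 0.721 in the combined group. The groups did not overlap. Its rise was 2.57-fold in the combined group against saline (log2 1.36, SE 0.29, adjusted p = 0.0104), and gefitinib against saline was not called (log2 0.84, adjusted p = 0.221).

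Among fibril-associated chains, which coat fibrils and join them to other matrix, 1 rose and 1 fell in the combined group against saline. Col12a1 (chr9:79598991-79718720) had 0.0613, 0.0400 and 0.0432 FPKM in saline, 0.166, 0.122 and 0.0901 in gefitinib and 0.243, 0.144 and 0.162 in the combined group. Saline was below all other libraries, and gefitinib and combined overlapped. The difference was 3.17-fold for combined against saline (log2 1.66, SE 0.35, adjusted p = 0.00987), and gefitinib against saline, at log2 1.32, was not called (adjusted p = 0.112 in edgeR), although DESeq2 called it. Col20a1 (chr2:180986535-181017714) read 2.53, 2.89 and 3.45 FPKM in saline, 1.48, 1.25 and 1.39 in gefitinib and 1.75, 0.600 and 0.663 in the combined group. In FPKM combined 1 was above every gefitinib library while the other combined libraries were below them. With counts scaled as for the edgeR test, combined 1 was below gefitinib 1. It was 3.49-fold lower in the combined group than in saline (log2 -1.80, SE 0.35, adjusted p = 0.00721). Gefitinib against saline was not called (log2 -1.15, adjusted p = 0.168 in edgeR), but was in DESeq2, without combined 1 and in a fit of the 6 libraries compared. Exons of Col20a1 share 79 bases on the same strand with another annotated gene that was not analysed here, so its counts are uncertain to that extent. Col14a1, the most abundant chain of the class, had 6.56, 3.84 and 3.09 FPKM in saline, 2.67, 3.72 and 2.93 in gefitinib and 4.16, 4.98 and 5.55 in the combined group, and was not called (log2 0.49, adjusted p = 0.256 against gefitinib).

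Col13a1 (ENSMUSG00000058806, chr10:61838236-61979108), a transmembrane collagen known from cell adhesion sites and the neuromuscular junction, showed the largest fall of the called chains. It had 0.536, 0.781 and 1.43 FPKM in saline, 0.378, 0.230 and 0.429 in gefitinib and 0.0729, 0.211 and 0.144 in the combined group, without overlap between any groups. It was 7.36-fold lower in the combined group than in saline (log2 -2.88, SE 0.50, adjusted p = 0.00423), while gefitinib against saline (log2 -1.44, adjusted p = 0.205) and combined against gefitinib (log2 -1.44, adjusted p = 0.0974) were not called in edgeR, and DESeq2 called the latter. Col7a1 (chr9:108953586-108984875), the anchoring fibril chain, read 0.127, 0.110 and 0.158 FPKM in saline, 0.0894, 0.0952 and 0.129 in gefitinib and 0.0633, 0.0557 and 0.0818 in the combined group. The combined libraries were below all others, and saline and gefitinib overlapped. Its fall against saline was 2.25-fold (log2 -1.17, SE 0.34, adjusted p = 0.0413), and this call was lost when any 1 of the 9 libraries was left out. It was also lost with a replicate block, library size scaling, no filter, only the 6 libraries compared and limma on FPKM with either pseudocount. Exons of Col7a1 hold the microRNA gene Mir711 on the same strand.

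The remaining chains were scarce. Of the 19 tested chains called in no comparison, 5 reached a mean of 1 FPKM in some group (Col4a2, Col5a1, Col5a3, Col6a2 and Col14a1) and the other 14 stayed at or below 0.648 FPKM in every library. Among them, Col6a6 had 36, 31 and 0 counts in saline, 62, 49 and 31 in gefitinib and 52, 85 and 304 in the combined libraries, so combined 3 held most of its counts. Its difference between combined and saline was not called in edgeR but was in DESeq2 (log2 2.46, SE 1.06, adjusted p = 0.142 in edgeR). The 6 untested chains, Col9a1, Col10a1, Col11a1, Col22a1, Col25a1 and Col26a1, had between 4 and 94 counts over all 9 libraries.

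The summed level of all 40 chains hardly differed between groups, while its makeup did. The sum was 148 ± 9.02 FPKM (SD, n = 3) in saline, 137 ± 12.1 in gefitinib and 148 ± 15.3 in the combined group. Col18a1 alone made up 77.0 ± 3.97%, 80.4 ± 3.54% and 57.6 ± 2.40% of it. Without Col18a1, the sum was 43.3, 29.7 and 30.3 FPKM in the saline libraries, 24.7, 29.1 and 25.9 in gefitinib and 57.7, 73.0 and 58.4 in the combined libraries, so every combined library was above every other. Within that remainder, types I and III together accounted for 12.4 ± 2.00% in saline, 15.4 ± 2.13% in gefitinib and 42.3 ± 2.81% in the combined group. The share of Col27a1 was 16.7 ± 1.31%, 10.9 ± 2.50% and 2.08 ± 0.514%. In the order of mean level, Col27a1 stood at rank 2 in saline, 5 in gefitinib and 12 in the combined group, and Col3a1 at rank 7, 7 and 2. Many neighbours in these orders overlapped: in saline, each of the chains from rank 3 to rank 8 overlapped the chain above it.

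**Figure D3:**
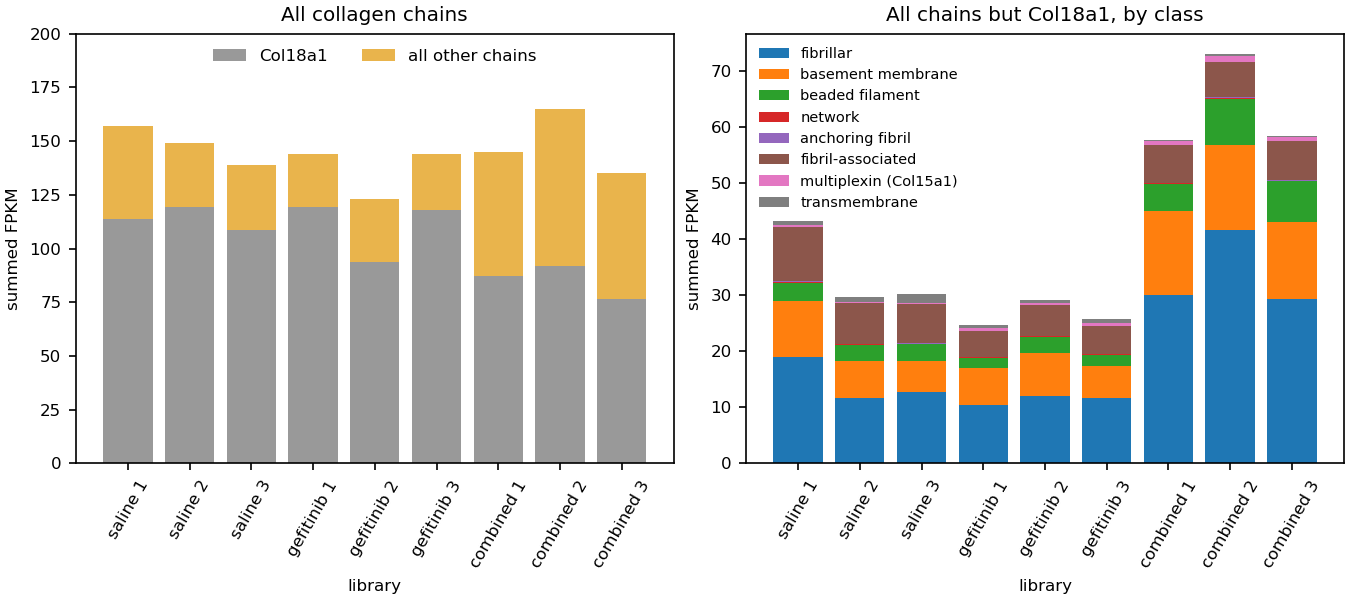
Summed FPKM in each of the 9 libraries, for Col18a1 and all other chains on the left and for the chains other than Col18a1 by collagen type on the right. The combined libraries reach 57.7 to 73.0 FPKM against 24.7 to 43.3 in the others, and most of the added height is fibrillar, at 33.7 ± 6.88 FPKM against 14.4 ± 3.99 in saline and 11.4 ± 0.889 in gefitinib.

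Chains that assemble with each other did not always change by the same factor. For 7 pairs, the ratio of FPKM within a library was compared across the 3 groups by an exact permutation test over the 9 libraries, whose 1680 arrangements allow no p below 0.00357. The ratio of Col1a1 to Col1a2 was 0.689, 0.767 and 0.805 in saline, 1.52, 1.14 and 1.09 in gefitinib and 1.94, 1.96 and 1.96 in the combined group, and the groups did not overlap. This gave the smallest possible p, 0.00357 by the exact permutation test, and 0.0125 after Benjamini-Hochberg adjustment over the 7 pairs. The ratio of Col4a1 to Col4a2 was 1.03, 1.01 and 1.17 in saline, 0.721, 0.896 and 0.940 in gefitinib and 1.41, 1.52 and 1.64 in the combined group, again without overlap and with the same exact permutation p and adjusted p. Since these genes overlap by 22 bases on opposite strands, reads there could be assigned to either if counting ignored strand.

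The other 5 pairs did not pass the adjustment. The nearest were Col5a1 to Col5a2, with a mean of 4.40 ± 0.925 in saline, 4.37 ± 1.09 in gefitinib and 2.12 ± 0.611 in the combined group, and Col6a3 to Col6a1, with 0.319 ± 0.0843, 0.375 ± 0.0499 and 0.530 ± 0.0776 (both adjusted p = 0.0625, exact permutation test). The ratio of Col6a1 to Col6a2 averaged 2.47, 2.52 and 2.44, with SDs of 1.21, 0.89 and 0.592 (exact permutation p = 0.964).

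**Figure D4:**
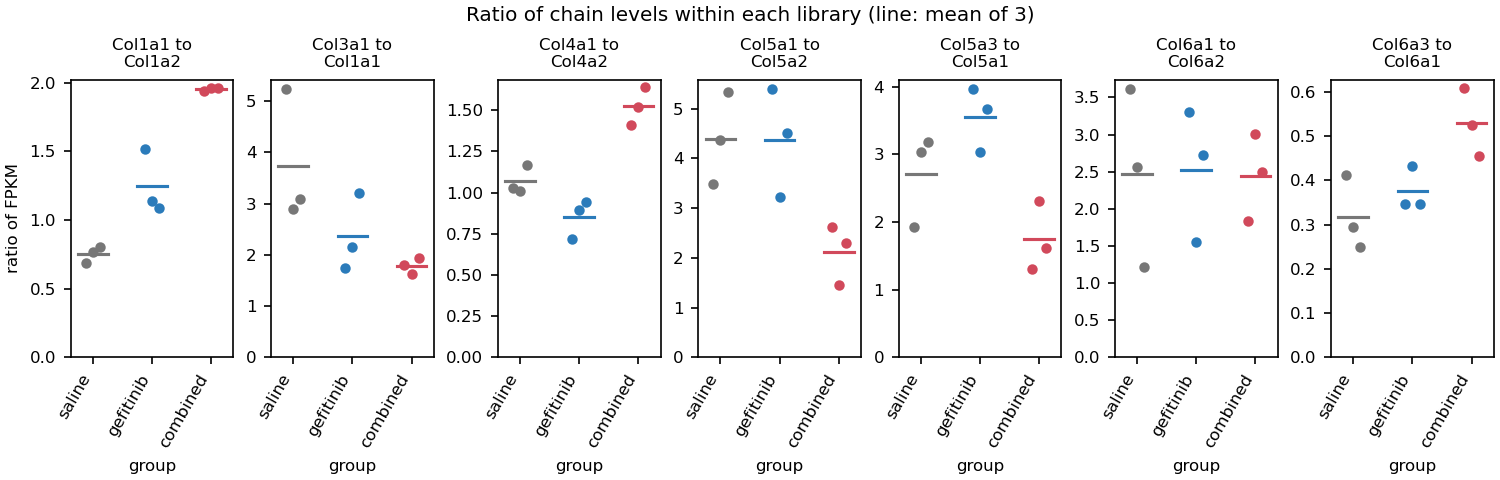
Ratio of FPKM between chains of the same or a neighbouring type, per library, with bars at the group means. The 3 groups separate for Col1a1 to Col1a2, with means of 0.754, 1.25 and 1.95 in saline, gefitinib and combined, and for Col4a1 to Col4a2, with means of 1.07, 0.853 and 1.52.

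Muscle markers and the 7 risers were set side by side within the gefitinib group. In gefitinib 1, the gefitinib library with high muscle markers, 5 of the 7 chains that rose against gefitinib were at their lowest of the 3 gefitinib libraries and 2 were in the middle. Without gefitinib 1, 6 of the 7 were still called, with log2 fold changes of 2.85 for Col1a1 (adjusted p = 0.00252 in edgeR), 2.05 for Col1a2, 2.31 for Col3a1, 1.38 for Col4a1, 1.38 for Col6a1 and 1.78 for Col6a3, and Col5a2 was not (log2 1.61, adjusted p = 0.119). Without gefitinib 1, muscle markers stood at 117 to 154 CPM in the combined libraries and at no more than 1.27 CPM in the rest. Muscle transcripts and the combined treatment thus cannot be told apart there, and the part of muscle was not tested. Sums of other cell-type markers follow. Myofibroblast markers, a list that shares Lox, Postn and Timp1 with the lists of partner genes, summed to 7.87 to 19.9 CPM in saline, 8.19 to 10.7 in gefitinib and 26.1 to 38.8 in the combined group. Of 6 tested, 2 were higher than with gefitinib (Lox and Postn) and 3 higher than in saline (Lox, Postn and Timp1). No marker outside these shared genes was called, so this list adds no call beyond the partner genes. Portal fibroblast markers summed to 17.4 to 20.8, 16.7 to 20.4 and 26.9 to 31.1 CPM, with 2 of 9 tested higher against gefitinib and 1 against saline. Stellate cell markers summed to 228 to 279, 183 to 205 and 161 to 218 CPM, with 4 of 12 lower and 1 higher in the combined group than in saline. Macrophage markers summed to 141 to 220 CPM in saline, 192 to 283 in gefitinib and 710 to 888 in the combined group, with 5 of 8 higher in the combined group in each comparison. Genes listed as mesothelial (Msln, Upk3b, Wt1, Krt8 and Lrrn4), of which Krt8 is not restricted to mesothelium, summed to 105 to 150, 198 to 238 and 616 to 750 CPM. Only 1 of the 5 was called higher in each of the 3 comparisons, so the sum does not show the list rising together and is no measure of mesothelium alone. No marker of these lists was at 0 in all libraries, and their part in the collagen results was not tested.

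Genes that fold, trim, cross-link, bind or degrade collagen formed 7 lists with 100 symbols in all; the table holds 97 of them, and 94 passed the filter. In the combined group against gefitinib, 22 of the 94 rose and none fell in edgeR, with 37 higher and 3 lower at an unadjusted p under 0.05, and 29 higher and none lower in DESeq2. Over all tested genes, 4.96% were called higher and 4.11% lower in that comparison. Against saline, 23 rose and 11 fell, or 32 and 6 when scaled by library size alone and 13 and 7 without saline 3, beside 9.37% higher and 8.32% lower over all tested genes. Gefitinib against saline gave 3 lower (Sparc, Hspg2 and Pxdn) and none higher in edgeR, with 5 higher and 23 lower at an unadjusted p under 0.05, and 3 higher and 12 lower in DESeq2, beside 0.547% higher and 0.591% lower over all tested genes. Pxdn stayed called whichever library was left out, Hspg2 was called only without saline 2, and Sparc was lost without any 1 gefitinib library, saline 3 or combined 2. The count for combined against gefitinib was smaller, at 10, without gefitinib 1, and at 12 to 14 without gefitinib 3 or any 1 combined library. The 12 calls lost without gefitinib 1 were those of Adamts14, Bgn, Lama2, Lamc1, Lox, Loxl1, Mrc2, Pdgfb, Pdgfc, Tgfb1, Tgfbr2 and Timp2, whose adjusted p in edgeR then lay between 0.0634 for Timp2 and 0.153 for Mrc2. The log2 fold change without that library was 2.85 for Lox, 0.96 for Tgfb1, 1.47 for Pdgfb, 0.47 for Tgfbr2, 1.25 for Mrc2 and 0.64 for Lamc1. Of the 34 calls against saline, 15 were lost without saline 3. They were those of Bmp1, Crtap, Ddr1, Itga1, Lair1, Lamb2, Loxl2, Lum, Mmp2, Mrc2, P4ha3, Pdgfc, Plod1, Smad7 and Timp1. Their adjusted p in edgeR then lay between 0.0522 for Lum and 0.122 for Mrc2.

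Among 19 tested genes for folding and modification, Serpinh1, the collagen-specific chaperone of the endoplasmic reticulum, had 3.78, 2.28 and 2.10 FPKM in saline, 1.72, 1.37 and 1.52 in gefitinib and 6.20, 6.82 and 5.64 in the combined group. It was the only gene of that list called against gefitinib (log2 1.84, SE 0.22, adjusted p = 0.00147), and its combined libraries were above all others. Against saline 3 rose, Serpinh1 (log2 0.97, adjusted p = 0.0138), Crtap and P4ha3, and 2 fell, Plod1, a lysyl hydroxylase (log2 -0.53, adjusted p = 0.0177), and Mia3, which helps load procollagen into transport carriers (log2 -0.64, adjusted p = 0.00379). P4ha3, a prolyl hydroxylase subunit named after its values were seen, had 0 counts in all saline and gefitinib libraries and 14, 11 and 16 in the combined group, at least 3.74-fold higher than a floor of 3 counts per saline library.

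Of 10 tested genes for procollagen processing and cross-linking, 5 rose against gefitinib. Lox, the lysyl oxidase that starts cross-links, had 0.0127, 0.0550 and 0.0543 FPKM in saline, 0.0394, 0.110 and 0.0270 in gefitinib and 0.454, 0.796 and 0.409 in the combined group. Its rise against gefitinib was 8.24-fold (log2 3.04, SE 0.67, adjusted p = 0.0221), and the combined libraries stood apart. Loxl2, a related oxidase (log2 1.68, adjusted p = 0.00588), and Adamts2, which trims the amino-terminal propeptide of fibrillar procollagens (log2 1.32, adjusted p = 0.01), rose as well, with Loxl1 and Adamts14. Against saline, Lox (log2 3.48, adjusted p = 0.00773), Loxl2, Adamts2 and Adamts14 rose and Bmp1, the carboxy-terminal propeptidase, fell. Of 12 tested fibril-binding proteins, 4 rose against gefitinib: Sparc (log2 1.27, adjusted p = 0.00157), Postn (log2 1.78, adjusted p = 0.00262), Lum (log2 1.53, adjusted p = 0.00803) and Bgn. Sparc, a collagen-binding glycoprotein, had fallen with gefitinib (log2 -0.93, SE 0.16, adjusted p = 0.0288), from 21.9, 13.1 and 14.3 FPKM in saline to 8.47, 9.09 and 9.01, and stood at 23.4, 24.6 and 24.4 in the combined group, where it was not called against saline (log2 0.34, adjusted p = 0.161).

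Of the 16 basement membrane partners, 3 rose against gefitinib, and 2 rose and 5 fell against saline. Nid1, the nidogen that bridges laminin and type IV collagen, rose against gefitinib (log2 1.79, SE 0.21, adjusted p = 0.0013) and saline (log2 1.29, adjusted p = 0.00289), from 1.91, 1.27 and 1.5 FPKM in saline and 0.949, 1.40 and 1.05 in gefitinib to 5.74, 4.34 and 3.29. The laminin chain Lamc1 rose in both comparisons too (log2 0.66, adjusted p = 0.036 against gefitinib), and Lama2 rose against gefitinib. Those that fell against saline included Hspg2, the proteoglycan perlecan (log2 -0.90, adjusted p = 0.00351), Lama3 (log2 -1.82, adjusted p = 0.00268) and Pxdn, the peroxidase that cross-links type IV collagen (log2 -1.04, adjusted p = 0.00362). Pxdn and Hspg2 had also fallen with gefitinib alone (log2 -1.43, adjusted p = 0.011, and log2 -0.79, adjusted p = 0.0454). In that comparison 8 of the 9 sinusoidal endothelial markers were lower too, from 328 to 422 CPM in sum to 139 to 163, and their part in these falls was not tested.

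Of 11 tested genes for collagen degradation and its inhibitors, 4 rose against gefitinib and 5 against saline. Mmp13, the main interstitial collagenase of mice, had 0.0538, 0.0673 and 0.0187 FPKM in saline, 0.119, 0.267 and 0.144 in gefitinib and 6.02, 5.33 and 3.28 in the combined group. It rose 24.0-fold against gefitinib (log2 4.58, SE 0.41, adjusted p = 0.000504) and 82.2-fold against saline (log2 6.36, SE 0.46, adjusted p = 6.19e-05), and every combined library was above every other. Mmp2, a gelatinase (log2 1.5, adjusted p = 0.00188), the lysosomal protease Ctsb (log2 0.67, adjusted p = 0.0117) and the inhibitor Timp2 rose against gefitinib as well. Against saline, Mmp2, Ctsb, Mmp8 and Timp1 rose with Mmp13. Mmp8, the neutrophil collagenase, had 0 counts in every saline library, 26, 4 and 33 in gefitinib and 55, 32 and 128 in the combined group, at least 19.8-fold higher than a floor of 3 counts per saline library.

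Among 12 tested collagen receptors, Mrc2, an endocytic receptor for collagen fragments, rose against gefitinib (log2 1.5, SE 0.41, adjusted p = 0.0489), and Mrc2, Ddr1 and Lair1 rose against saline (log2 1.38, 1.86 and 1.67) while the integrin chain Itga1 fell (log2 -0.52, adjusted p = 0.0219). All of these receptor calls against saline were lost without saline 3. Among 14 tested ligands, receptors and matrix inducers around TGF-beta, Tgfb1 rose against gefitinib (log2 1.18, SE 0.29, adjusted p = 0.0344), from 0.458, 1.05 and 0.675 FPKM to 1.95, 1.81 and 1.80, with saline at 1.11, 0.717 and 1.36 and no call against it (log2 0.59, adjusted p = 0.193). Pdgfb, a growth factor for stellate cells (log2 1.72, adjusted p = 0.0415), Tgfbr2 (log2 0.63, adjusted p = 0.0424) and Pdgfc rose against gefitinib, and Pdgfb, Tgfbr2, Pdgfc and Pdgfa (log2 2.00 for Pdgfa, adjusted p = 0.00131) rose against saline. Smad7, an inhibitor of that signalling, and the co-receptor Tgfbr3 fell against saline.

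**Figure D5:**
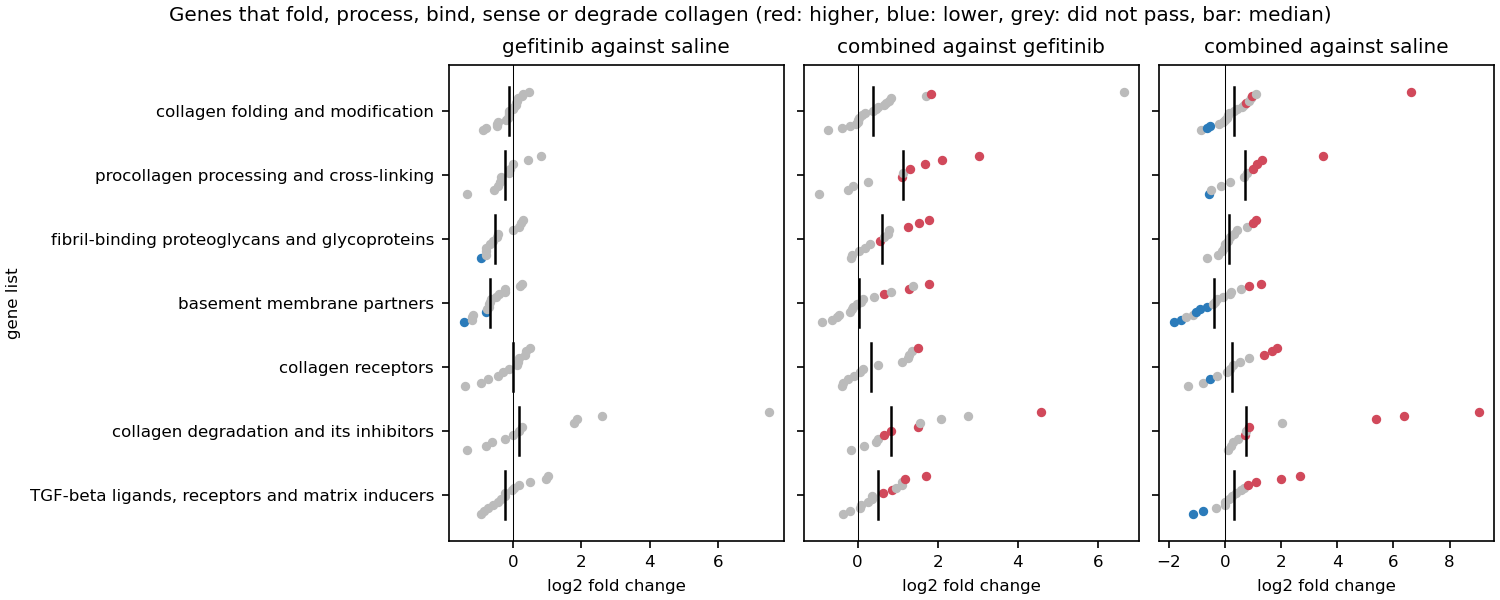
Log2 fold change of the tested partner genes in each of the 7 lists for the 3 comparisons, with red for genes called higher, blue for lower, grey for the rest and a bar at the list's median. Called genes lie to the right against gefitinib, from 0.55 for Bgn to 4.58 for Mmp13, and on both sides against saline. The fitted values of Mmp8 and P4ha3 against saline depend on the prior count, since all saline libraries were at 0.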

How the data were processed

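Messenger RNA libraries of mouse liver were made with a SMARTer kit, per the labels' protocols. The deposited table gives, for each library, raw counts of every gene, whole numbers that the authors did not scale. Beside them stand FPKM values, which the authors scaled by gene length and library size, per the file headers. The submitters' processing notes name builds GRCm38 and mm10, and coordinates are 1-based in that assembly. The sources used here do not name the aligner or counter or say whether strand was used. All 18 columns matched a library.

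Counts were fitted with edgeR 4.0.16 in R 4.3.3, with filterByExpr (18113 genes kept, 9832 not), TMM factors of 0.905 to 1.14 and 1 quasi-likelihood fit over 9 libraries with 6 residual degrees of freedom. Calls are Benjamini-Hochberg adjusted p under 0.05 over all tested genes. Levels are FPKM, marker sums are CPM scaled with the TMM factors. FPKM ratios were tested by exact permutation. Overlap of libraries is judged on FPKM, which lacks the TMM factors of the edgeR test, so close libraries can change order on the tested scale. Pairs of libraries within a group had a chi-square divided by its degrees of freedom between 81.8 and 169, so none was counted as a repeat. Floors of 3 counts cover counting error only. The scripts were tested on simulated data. Alternatives were DESeq2 1.42.0, limma 3.58.1 on log2 FPKM plus a pseudocount of 1 or 0.1, other scalings, no filter, a replicate block and each library left out.

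The members and lists were chosen with earlier results of these data known. Library values are given for chains called in any comparison and for the main chains of types I, III, IV, V and VI, and other chains are named from a mean of 1 FPKM. From each partner list up to 3 called genes per comparison, those with the smallest adjusted p, are given values. Further called genes are only named, except P4ha3. Tll1, Tll2 and Ctgf were not analysed here.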

Additional observations from a re-analysis of the deposited data

How the results depend on the processing

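For the 15 called chains, 25 calls were recomputed, with 442 alternative results in all: 371 were kept, 71 were lost and none changed sign, and 18 of the 25 were kept in every alternative. The others were Col11a2 for gefitinib against saline, Col5a2, Col18a1 and Col27a1 for combined against gefitinib, and Col5a2, Col6a1 and Col7a1 for combined against saline. Scaling by library size alone moved the median log2 fold change of all genes by 0.17 for combined against gefitinib and 0.21 for combined against saline.

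The count of 1 chain called for gefitinib against saline became 0 with a replicate block, median-ratio or library size scaling, no filter, or limma on FPKM with a pseudocount of 1, of 0.1 or a mean of at least 1 FPKM, and 4 in DESeq2, and was 0 to 1 when libraries were left out. Without combined 1, and with only the 6 libraries compared, the 1 called chain was Col20a1 in place of Col11a2. The 3 partner genes called there became 1 with a replicate block, no filter, limma with either pseudocount or only the 6 libraries compared, 0 in limma with a mean of at least 1 FPKM and 15 in DESeq2, and were 1 to 3 when libraries were left out. The 22 partner genes called for combined against gefitinib became 14 with a replicate block and 14 with no filter, and were 10 to 18 when libraries were left out, and the 34 against saline were 20 to 33, lowest without saline 3. The cause was not tested.

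With a replicate block, 6 chains were called for combined against gefitinib in place of 9, and 13 in place of 15 against saline. Over all tested genes, libraries with the same replicate number did not deviate together, with correlations of -0.076 to 0.072 over 9 pairs. Such correlations cannot exclude a weak shared batch or day, and the labels do not say what the numbers mark.

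The ratio of summed collagen FPKM went from 1.08 to 2.37 for combined to gefitinib, from 1.00 to 1.83 for combined to saline and from 0.924 to 0.772 for gefitinib to saline when Col18a1 was left out. In CPM with Col18a1 kept, combined to saline was 0.882. Without Col18a1, the sums in CPM were 341 ± 74.8 in saline, 249 ± 13.2 in gefitinib and 535 ± 83.4 in the combined group. With counts in place of FPKM or any 1 library left out, alternatives chosen after seeing the data, the combined-to-saline ratio of Col1a1 to Col1a2 was 2.49 to 2.69 times and that of Col4a1 to Col4a2 1.37 to 1.49 times, with an exact permutation p of 0.00357 to 0.00714. The 6 untested chains had too few counts to pass the filter.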
